A study of Mus musculus with 8 samples.

Results

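The miR-199 and miR-214 cluster was followed among RISC-bound small RNAs (R-sRNAs) of mouse brain. It was defined by 6 mature names, mmu-miR-214-3p, mmu-miR-214-5p, mmu-miR-199a-3p, mmu-miR-199a-5p, mmu-miR-199b-3p and mmu-miR-199b-5p (mmu, for mouse, is left off from here on), out of 906 miRNA names in the deposited table, and all reads carrying one of them were summed per name. The table lists miR-199a-3p and miR-199b-3p only under a joined name, called miR-199a/b-3p here, so the 6 names made 5 entries out of 895 and held 56 of 47204 read sequences. The names were chosen with the levels of these libraries in view, so levels and arms are described. The genotype contrast comes from a fit over all miRNAs, and read forms were compared between the genotypes by permutation tests.

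The Argonaute proteins were pulled down with a GW182 peptide from cortex and hippocampus of female mice on a mixed C57BL/6J/SJL background. All mice carried the 5XFAD transgene, which models amyloid deposition, and the groups differed in Rubicon, a gene that restrains autophagy: 4 libraries came from 5XFADtg Rubicon het mice (het, 1 intact copy) and 4 from 5XFADtg Rubicon ko mice (ko, no intact copy), each with its own mouse number in the labels. The written accounts differ, since one has 4 mice of each genotype aged 6 or 8 months, and another mice of 6 months with 3 in the het group. All 8 labelled libraries were used. No mouse without the transgene entered these comparisons, and the labels give no age. The genotypes rest on the sample labels, and the promoter of the transgene is not given there.

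A miRNA hairpin is cut into a duplex of a 5p and a 3p arm, and the arm kept by an Argonaute protein guides it to mRNAs through its seed, the bases that follow the first. miR-214 and one of the miR-199a hairpins are carried by a shared noncoding transcript, Dnm3os, which is known from mesenchyme, the skeleton and fibroblasts and is driven by the factor Twist1. In whole brain tissue such cells are a minority that accompanies vessels and meninges.

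The mature sequences are shown because the seeds, in capitals (bases 2 to 8), decide which reads can be told apart. They were taken from RefSeq (GRCm38.p6), which matched 5 of the 6 names, and the miR-199b-5p line is the most abundant deposited read of that name.
miR-214-3p: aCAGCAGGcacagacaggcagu
miR-214-5p: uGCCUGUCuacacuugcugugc
miR-199a-3p: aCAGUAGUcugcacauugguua
miR-199b-3p: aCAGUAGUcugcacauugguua
miR-199a-5p: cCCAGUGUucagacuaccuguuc
miR-199b-5p: cCCAGUGUuuagacuaccuguuc
Both 3p arms of miR-199 are the same sequence, and both 5p arms share a seed and differ by C10U, counted from the 5′ end with the miR-199a-5p base first. miR-214-3p and the miR-199 3p arm differ within the seed, so no seed joins the miR-214 and miR-199 arms.

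On GRCm38 the 6 names map to 4 hairpins. Mir199a-2 (chr1:162217814-162217923, plus strand) and Mir214 (chr1:162223368-162223477, plus strand) lie 5445 bases apart, both inside an exon of Dnm3os and on the opposite strand to an intron of Dnm3. Mir199b (chr2:32318460-32318569, plus strand) lies opposite an intron of Dnm1, and Mir199a-1 (chr9:21496495-21496564, minus strand) opposite an intron of Dnm2. The dynamin genes themselves code for proteins that pinch off membrane vesicles. Reads of the miR-199 3p arm can therefore come from 3 hairpins and reads of miR-199a-5p from 2, while miR-214 reads have 1 source and miR-199b-5p reads come from Mir199b alone. In the second annotation column of the table, 52 of the 56 sequences were credited to a Dnm3os transcript, labelled there as an mRNA of mouse_mm9, and the 4 miR-199b-5p sequences to the miR-199b hairpin. Only 2 other reads, of 17 nt and without a miRNA name, were credited to Dnm3os, at a mean of 0.371 and 0.187 reads per 1000000 reads of the library (CPM), and both lay within the 3p arm.

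Depth started at 509839 reads in het replicate 1, and the 2 deepest libraries, with 7845446 and 19878054 reads, were both ko. The level of 3 reads, used as the floor, was 5.79 CPM in the shallowest library and 0.151 CPM in the deepest. As a check of the tissue, the neuronal miR-124-3p, miR-128-3p and miR-9-5p summed to between 145125 and 247446 CPM per library. Over all of these libraries the cluster was scarce, with 76.5 to 753 CPM and between 0.00796% and 0.0795% of miRNA reads. That is 91 to 2517 reads per library. Intervals and floors given here cover counting error only, since the reads had no molecular identifiers.

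The 3p arm of miR-199 was the most abundant member. It held 346, 111, 71.1 and 103 CPM in het replicates 1 to 4 and 67.4, 89.8, 55.4 and 47.0 CPM in ko replicates 1 to 4. Its level in het replicate 1 was 3.10 times the next het library, and 3 of the 4 ko libraries lay below the lowest het library. By mean level, 111 CPM, it ranked 270 of 895 entries.

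miR-214-3p, a miRNA studied for its part in bone and fibrosis, came next. The het libraries held 226, 51.6, 32.2 and 45.8 CPM of it, the ko libraries 30.4, 15.1, 11.6 and 10.8 CPM. Het replicate 1 again stood far above the rest, and all 4 ko libraries lay below the lowest het library. The closest libraries of the opposite genotype, het replicate 3 and ko replicate 1, rested on 83 and 239 reads, and their 95% Wilson intervals of 26.0 to 39.9 and 26.8 to 34.5 CPM overlapped. Such a complete separation downwards was seen in 3.24% of the 463 miRNAs whose mean reached 10 CPM. As the names were chosen with these levels in view, that share is a description and not support for a lower level in ko.

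miR-199a-5p spread widely within each genotype. Its values were 153, 40.6, 5.44 and 66.1 CPM in het and 10.6, 14.9, 6.45 and 22.5 CPM in ko. Het replicate 3, the lowest of all libraries, held 14 reads of it, and the genotypes overlapped.

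The remaining arms were scarce. miR-214-5p, the passenger arm of Mir214, was present at 17.4, 8.94, 2.72 and 2.25 CPM in het, at 1.02 and 2.11 CPM in ko replicates 1 and 2, and at 0 in ko replicates 3 and 4, where 3 reads would be 1.29 and 2.94 CPM. The ko values were below all het values, on 35 reads in het and 50 in ko, as in 3.3% of the 698 miRNAs whose mean reached 1 CPM. miR-214-5p is among those through het alone, with means of 7.82 CPM in het and 0.782 CPM in ko, so nothing is read from that share. This order is not resolved at this depth, since ko replicate 2 (95% Wilson interval 1.56 to 2.85 CPM) and het replicate 4 (1.03 to 4.92 CPM) overlapped, and the floor of ko replicate 4 lies above the values of het replicates 3 and 4. For miR-199b-5p the levels were 11.6, 0, 4.66 and 11.3 CPM in het and 0, 4.42, 3.01 and 8.82 CPM in ko. One library of each genotype held no read of it, and the genotypes overlapped throughout.

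**Figure D1:**
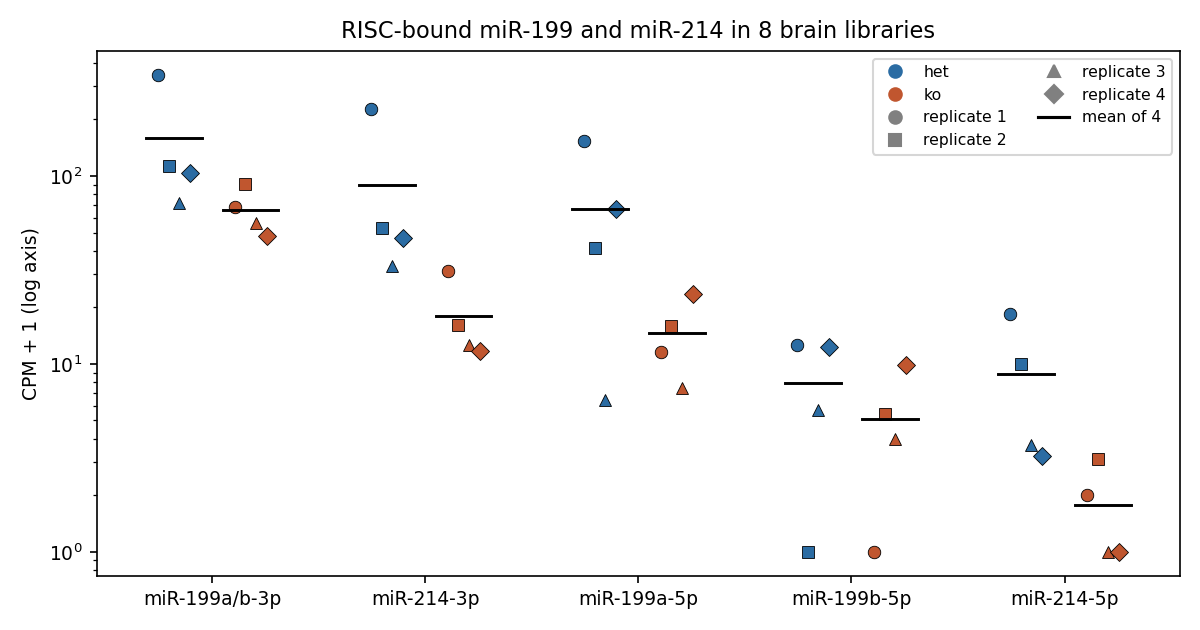
CPM plus 1 on a log axis for the 5 entries of the cluster, 1 point a library, with het in blue, ko in orange, marker shapes for replicates 1 to 4 and black lines for the mean of 4. Het replicate 1 is the highest point in every column, and for miR-214-3p all ko points lie below all het points.

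The order of the members was partly the same in every library. miR-199a/b-3p was above miR-214-3p in 8 of 8 libraries, and miR-199a-5p above miR-199b-5p in 8 of 8. miR-214-3p exceeded miR-199a-5p in 6 of 8 and miR-199b-5p exceeded miR-214-5p in 5 of 8, so the order of these neighbours varied between libraries. Their differences were not tested. Over pooled reads, where the deepest libraries weigh most, miR-214-3p stood at 25.4 in place of its mean of 52.9 CPM and miR-199a-5p at 19.5 in place of 39.9 CPM. All reads were of 18 to 24 nt, so CPM were compared without a length correction.

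Within the Dnm3os pair, the ratio of miR-199a/b-3p to miR-214-3p was 1.53, 2.16, 2.20 and 2.25 in het and 2.22, 5.94, 4.78 and 4.36 in ko. The ko libraries were higher in 3 of 4 cases than every het library, and ko replicate 1 lay inside the het range. This ratio was not tested, and part of its numerator comes from hairpins outside Dnm3os.

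Both miRNA families were held in the RISC mainly as the 3p arm. For Mir214 the 3p arm exceeded the 5p arm in each of the 6 libraries that held the latter, by ratios from 5.77 to 29.9, and by 11.5 over the pooled reads. The 3p to 5p ratio of miR-199a was 2.27, 2.75, 13.1 and 1.56 in het and 6.39, 6.02, 8.60 and 2.09 in ko. It exceeded 1 in all 8 libraries but varied more within het than between the genotype means of 4.91 and 5.77. As miR-199b adds to the 3p count alone, this ratio is an upper value for miR-199a. With the miR-199b-5p reads added to the 5p arm it ran from 1.33 to 7.04. The share of miR-199b in the 5p reads, the only arm that tells the paralogs apart, ranged from 0% to 46.2% of CPM.

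To ask whether the loss of Rubicon changed the cluster, miRNAs were compared by limma on log2(CPM + 1), which understates the change of low miRNAs. Of the 5 entries, 3 passed the filter of a mean of 10 CPM. All 3 had a negative log2 difference (ko minus het), as did 59.4% of the 463 miRNAs tested. At a limma adjusted p under 0.05, 0 of the 3 passed, and the background was 1.3%. At an unadjusted p under 0.05 there were 2 of 3, against a background of 7.34%. The names were chosen with the levels of these libraries in view. Those 2, miR-214-3p and miR-199a/b-3p, were alike over the libraries (r = 0.93) and both highest in het replicate 1, so nothing is read from that count. On recovered reads edgeR called 0 of the 3 (background 0.864%) and DESeq2 called 1 (background 1.94%). The median log2 difference of all miRNAs was -0.09. In a bulk lysate, fewer cells that carry the cluster and less RISC-bound miRNA per cell cannot be told apart.

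miR-214-3p had a mean of 88.9 ± 91.7 CPM in het and 17.0 ± 9.15 CPM in ko (SD, n = 4 each). The log2 difference was -1.99 (SE 0.56, limma adjusted p = 0.175), and it ranked 10 of 463 by p. Without het replicate 1, the shallowest library, it was -1.39 (adjusted p = 0.31). DESeq2 on reads recovered from the CPM called it, with a log2 difference of -2.18 (adjusted p = 0.0117), whereas edgeR did not (-2.15, adjusted p = 0.277). Over 19 alternatives the log2 difference stayed between -2.43 and -1.39, with adjusted p between 0.0117 and 0.405. Of these, 2 called it, DESeq2 and limma with a replicate block (-1.99, adjusted p = 0.0184), a pairing that the labels do not give.

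For miR-199a/b-3p the het mean was 157.8 ± 126 CPM and the ko mean 64.9 ± 18.6 CPM, with a log2 difference of -1.03 (SE 0.45, limma adjusted p = 0.593). Leaving out het replicate 1 brought it to -0.56 (adjusted p = 0.983), and 0 of 20 alternatives called it. For miR-199a-5p the het mean was 66.2 ± 62.7 CPM and the ko mean 13.6 ± 6.88 CPM, with a log2 difference of -1.60 (SE 0.78, limma adjusted p = 0.622). A single library decided this call: without het replicate 3 the log2 difference was -2.49 (adjusted p = 0.0347), and without het replicate 1 it was -0.97 (adjusted p = 0.983). Under DESeq2 it was -2.09 (adjusted p = 0.077). All 3 members were lower in ko on average, none passed limma with genotype as its only term, and each difference was smaller without het replicate 1.

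**Figure D2:**
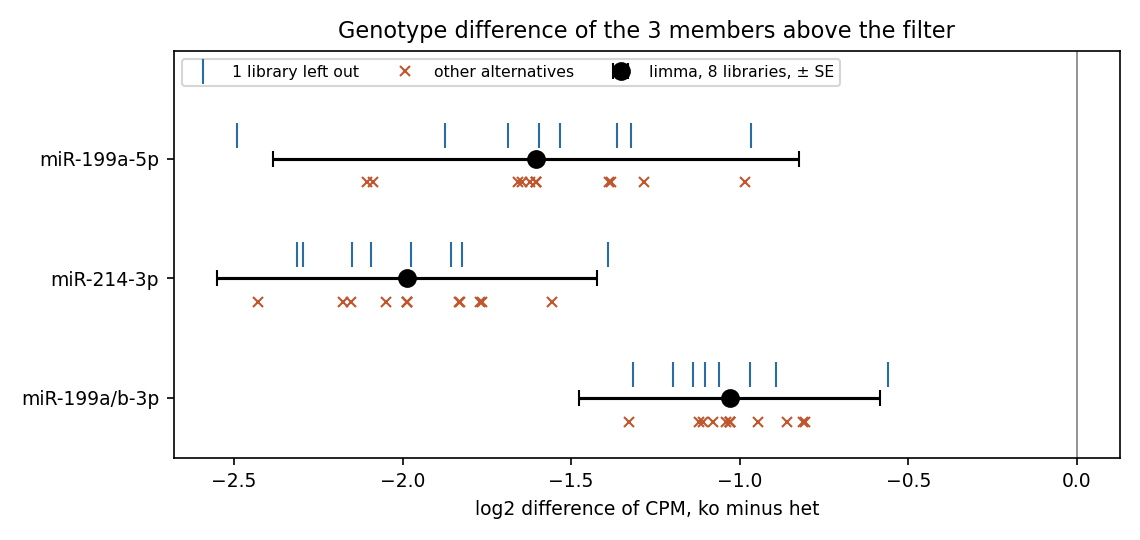
Log2 difference of CPM, ko minus het, for the 3 members above the filter. Black points are the limma estimates with SE over 8 libraries, blue ticks leave out 1 library each and orange crosses are the other alternatives. All values lie below 0, with -1.99 for miR-214-3p, -1.03 for miR-199a/b-3p and -1.60 for miR-199a-5p.

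Centring each library on its median shifted the log2 difference of the median miRNA by 0.22. Relative to that shift the members stood at -1.76 for miR-214-3p, -0.81 for miR-199a/b-3p and -1.38 for miR-199a-5p, again without a call. In the 5 libraries of 1000000 to 3000000 reads, an alternative added after seeing the data, they were -1.83, -0.86 and -0.98. With a filter of a mean of 1 CPM, where 0.86% of miRNAs were called, the low arms could be fitted too. There miR-214-5p had a log2 difference of -2.12 (SE 0.70, limma adjusted p = 0.337) and miR-199b-5p one of -0.51 (SE 0.85, adjusted p = 0.989). Neither size is firm. miR-214-5p passed that filter only through het, which favours a negative value, and its difference was -3.84 with a pseudocount of 0.1 CPM and -0.65 with 10 CPM. The difference of miR-199b-5p turned to 0.14 without ko replicate 1 and to 0.21 without the 2 deepest libraries.

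Other miRNA groups were summed per library by the cell type they mark. Epithelial miRNAs summed to between 2249 and 8555 CPM in het and between 226 and 1794 CPM in ko, and all 6 tested had negative log2 differences. Of these, 3 were called, miR-200a-3p, miR-200b-3p and miR-429-3p, against a background of 1.3%. As the lists were chosen with earlier results of these data known, the comparison with that background is a description only. miR-141-3p (-3.94, limma adjusted p = 0.495) and miR-200c-3p (-2.86, adjusted p = 0.746) had differences of like size without a call. miR-203-3p (-0.16) stayed between 59.3 and 113 CPM over all libraries, and miR-205-5p, too scarce to test, between 2.75 and 18.8 CPM. Across the 8 libraries the epithelial sum had an r of 0.55 with miR-214-3p, which was -0.21 after the genotype means were removed. Oligodendrocyte miRNAs, 3 tested and 0 called, ranged from 9473 to 15455 CPM in het and from 6148 to 9935 CPM in ko, with an r of 0.73 to miR-214-3p and 0.39 after the genotype means were removed. Erythroid miRNAs, 3 tested and 0 called, ranged from 1911 to 3392 CPM in het and from 912 to 2380 CPM in ko. The part of these groups in the differences of the cluster was not tested.

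miRNAs of the vessel wall are the nearest to the cluster by cell type. miR-143 and miR-145a, which mark smooth muscle cells and pericytes (mural cells), summed to between 4731 and 6079 CPM in het and between 3404 and 5834 CPM in ko. Of the 4 tested, 0 passed, and the median log2 difference was -0.23. The largest difference among them was that of the scarce miR-143-5p, with a het mean of 24.5 ± 5.35 and a ko mean of 11.1 ± 7.20 CPM (log2 difference -1.27, limma adjusted p = 0.578). For miR-143-3p the het and ko means were 3024 ± 466 and 2349 ± 597 CPM, and for miR-145a-5p they were 2384 ± 328 and 2368 ± 945 CPM. With this sum, r over the 8 libraries was 0.27 for miR-214-3p, 0.23 for miR-199a/b-3p and -0.22 for miR-199a-5p, and rho was 0.43, 0.38 and -0.26. Leaving out 1 library gave an r from -0.20 to 0.45 for miR-214-3p and from -0.27 to 0.48 for miR-199a/b-3p. For miR-199a-5p it ran from -0.41 to -0.05. Whether the cluster follows the mural sum is not settled by 8 libraries. In het replicate 1 there were 0.113 reads of miR-199a/b-3p per read of miR-143-3p, against 0.0211 to 0.0439 in the other 7 libraries. Taken relative to the mural sum, a scale added after seeing the data, the log2 differences between the genotypes were -1.77 for miR-214-3p, -0.81 for miR-199a/b-3p and -1.39 for miR-199a-5p, with no test. That the cluster marks mesenchymal cells is background knowledge, and apart from the mural list no marker of such cells was compared here.

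Endothelial miR-126a arms ranged from 6038 to 11056 CPM in het and from 6112 to 11931 CPM in ko, striated muscle miRNAs from 198 to 311 and from 149 to 383 CPM, miRNAs of the choroid plexus from 2382 to 4665 and from 2117 to 4483 CPM, and myeloid and lymphoid miRNAs from 2558 to 3991 and from 2430 to 4528 CPM. The genotypes overlapped in each, and 0 of their 11 tested miRNAs passed. Median log2 differences were -0.10 for the endothelial, -0.18 for the striated muscle, -0.15 for the myeloid and lymphoid, -0.86 for the erythroid, -0.51 for the oligodendrocyte, 0.33 for the neuronal and -3.33 for the epithelial list. For the choroid plexus the median of 1.38 lies between 2 miRNAs that went opposite ways, the abundant miR-204-5p (-0.13) and the scarce miR-211-5p (2.88, limma adjusted p = 0.266), and the list sums averaged 3397 CPM in het and 3145 CPM in ko. Het replicate 1 was not the highest library in any of the 9 lists, and it was the highest of all 8 libraries in 14% of the 463 miRNAs tested.

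**Figure D3:**
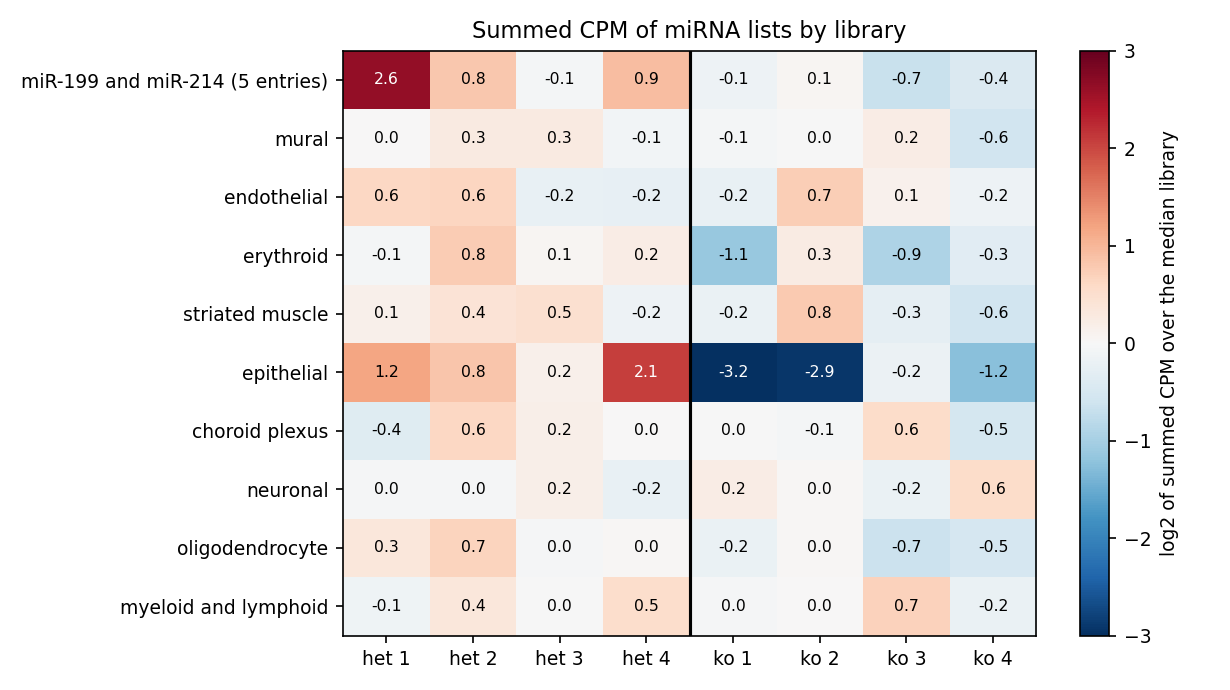
Log2 of the summed CPM of the cluster and of 9 miRNA lists in each library, relative to the median library of that row, with het left and ko right of the black line. The cluster is highest in het replicate 1 at 2.63, where the mural sum is at 0.01, and the epithelial sum is lowest in ko replicates 1 and 2.

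The members were alike over libraries to unequal degrees. As a description over 8 libraries that share the het replicate 1 extreme, log2(CPM + 1) of miR-214-3p and miR-199a/b-3p had r = 0.93 and rho = 0.93, which was 0.68 without the 2 libraries farthest from the median and 0.90 after the genotype means were removed. The 2 arms of Mir214 had r = 0.91, and miR-199a/b-3p and miR-199a-5p had r = 0.81 and rho = 0.67. miR-214-3p and miR-199a-5p, a pair that can come from neighbouring hairpins, had r = 0.75 and rho = 0.57. Leaving out 1 library brought that r as low as 0.47, and with genotype means removed rho was 0.33. The same removal brought the rho of miR-199a/b-3p and miR-199a-5p to 0.33 as well. miR-199b-5p, from another chromosome, had r between 0.01 and 0.37 with the other members, on 152 reads in all. The r with the log10 of reads per library was between -0.54 and -0.34 for the 5 entries.

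**Figure D4:**
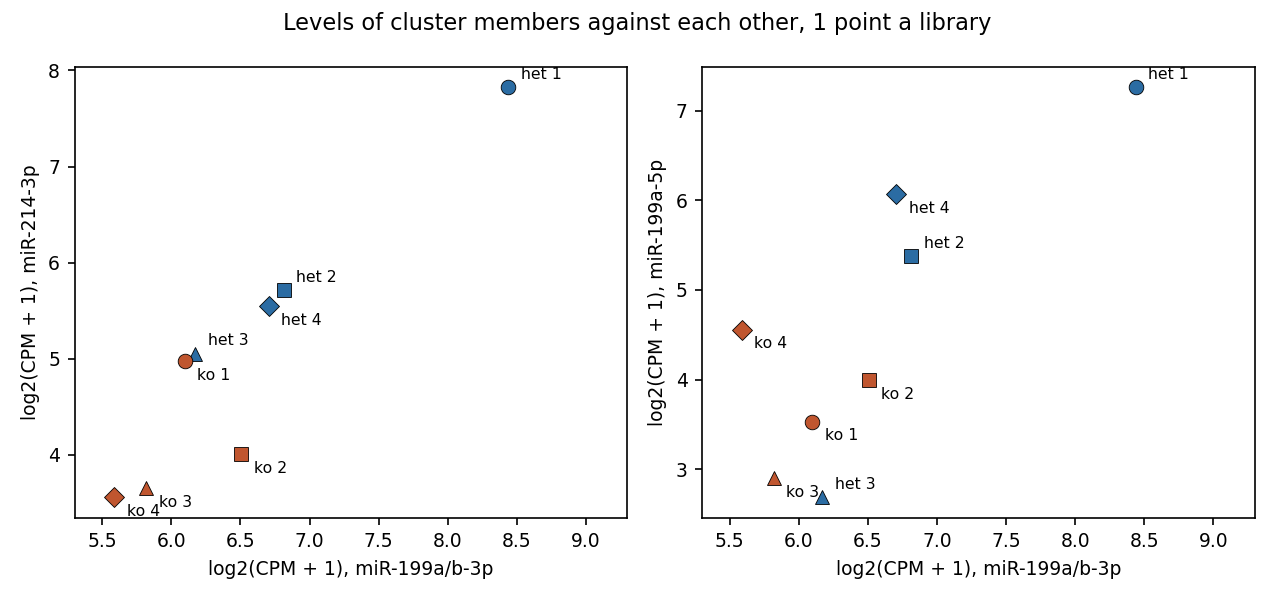
Log2(CPM + 1) of miR-214-3p (left) and miR-199a-5p (right) against miR-199a/b-3p, 1 point a library, with het in blue and ko in orange. The left pair has r = 0.93 and the right pair 0.81, and het replicate 1 lies at the upper right in both.

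Of all miRNAs outside the cluster, the pattern of miR-199a/b-3p over the 8 libraries was most like that of miR-190a-5p (r = 0.96), followed by miR-1251-5p (0.88), miR-338-3p (0.86), miR-124-5p (0.85) and miR-138-5p (0.81). For miR-214-3p they were miR-190a-5p (r = 0.87), miR-338-3p (0.85), miR-708-3p (0.80), miR-124-5p (0.78) and miR-194-5p (0.78). Several of these values rest on the extreme libraries or on the genotype means. Without the 2 libraries farthest from the median, the r with miR-214-3p was 0.56 for miR-190a-5p and 0.25 for miR-124-5p, while that of miR-190a-5p with miR-199a/b-3p was 0.93. With genotype means removed, the r with miR-214-3p was 0.49 for miR-708-3p and 0.43 for miR-194-5p. miR-190a-5p was nearer to miR-199a/b-3p than miR-214-3p was. The het and ko means of miR-190a-5p were 177 ± 108 and 92.4 ± 15.4 CPM (log2 difference -0.77, limma adjusted p = 0.679). Among the miRNAs most like miR-199a-5p, miR-199a/b-3p ranked 11 and miR-214-3p 17.

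The forms of each member in the RISC were read from single sequences. In miR-214-3p and miR-199a/b-3p many reads began 1 base upstream of the reference start, which moves the seed by 1 base. Reads of 5 of the starts are given below with bases 2 to 8 of the read itself in capitals, since a shift of 1 base turns one seed into another.
miR-214-3p, reference start: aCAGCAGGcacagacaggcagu
miR-214-3p, 1 base upstream: uACAGCAGgcacagacaggcag
miR-199a/b-3p, reference start: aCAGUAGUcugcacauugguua
miR-199a/b-3p, reference start, 21 nt: aCAGUAGUcugcacauugguu
miR-199a/b-3p, 1 base upstream: uACAGUAGucugcacauugguu
miR-214-5p, 1 base downstream: gCCUGUCUacacuugcugugc
Of the mean CPM of miR-199a/b-3p, 72.3% began at the reference base, 16.2% began 1 base upstream and 10.5% began 1 base downstream. For miR-214-3p the shares were 75.7% at the reference base and 23.0% upstream (17.1% without het replicate 1), with none 1 base downstream. miR-199a-5p was the most uniform of the 3, with 97.5% at the reference base. In miR-214-5p 56.0% of CPM began 1 base downstream, but this came largely from het replicate 1, where 8 of 9 reads did so (95% Wilson interval 56.5% to 98.0%), and the share was 22.5% without that library. The upstream start of miR-214-3p was seen in 6 libraries and was absent from ko replicates 3 and 4, which held 27 and 11 reads of it.

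**Figure D5:**
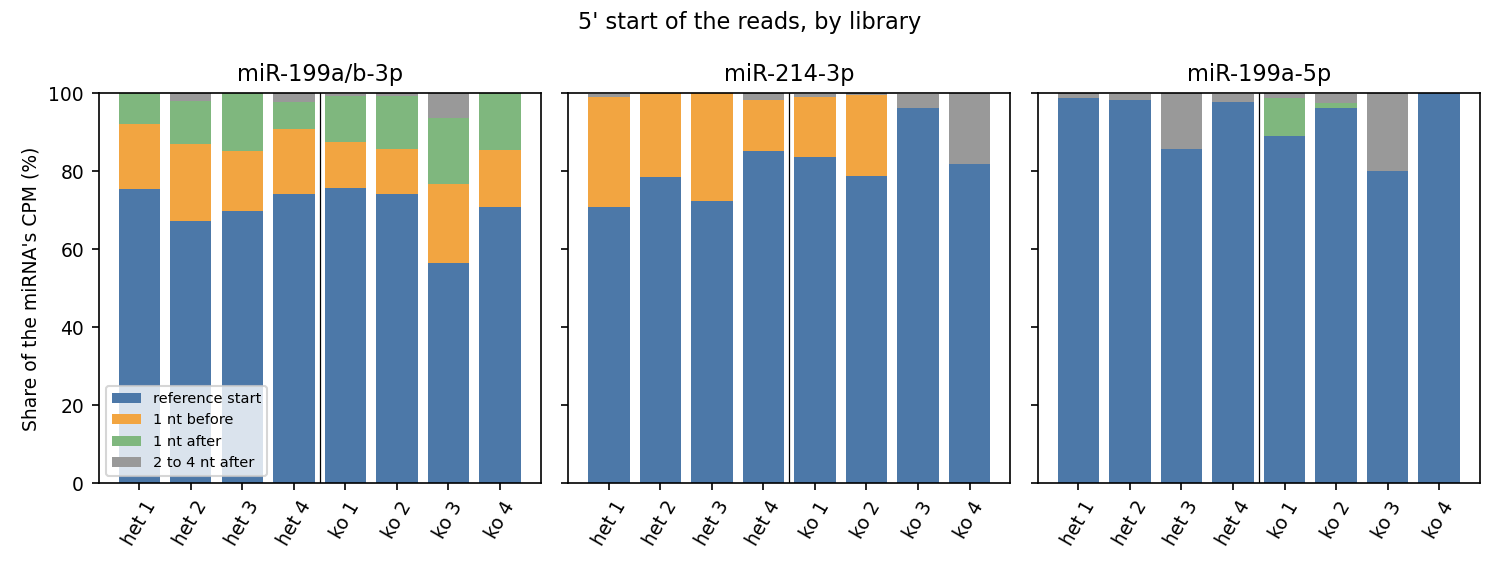
Share of CPM by the 5′ start of the read, relative to the reference start, for 3 members in each library, with het left and ko right of the line. miR-199a/b-3p has 56.6% to 75.8% of its reads at the reference start, miR-214-3p 70.9% to 96.3% and miR-199a-5p 80% to 100%.

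At the 3′ end, the 22 nt and 21 nt reads of miR-199a/b-3p led with 28.4% and 26.8% of its CPM. Without het replicate 1 the order turned, to 22.6% and 30.4%, and the 21 nt read was the higher one in 4 of 8 libraries. The 22 nt read held 129, 28.2, 9.32 and 33.4 CPM in het and 16.5, 19.7, 12.5 and 3.92 CPM in ko, so the genotypes overlapped. The 22 nt read of miR-214-3p carried 33.8% of its CPM and held 61.8, 17.9, 18.2 and 22.9 CPM in het and 11.5, 6.93, 3.01 and 0.98 CPM in ko, all ko libraries being lower. That separation was found in 2.21% of the 3299 reads tested. Its log2 difference was -2.36 (SE 0.64, limma adjusted p = 0.308 over 3299 reads). With a ko mean of 5.59 CPM it passed the filter of 10 CPM only through het, so neither value is support for a lower level in ko. For miR-199a-5p the 23 nt read carried 63.9% and the 22 nt read 23.7%. In all, 5 member reads passed the filter of 10 CPM, 0 were called against a background of 0.485%, 3 had an unadjusted p under 0.05 against a background of 5.3%, and all 5 log2 differences were below 0, as were 51.6% of those of all reads tested. Since 3 of the 5 had a ko mean under 10 CPM and passed only through het, these counts favour lower ko values and nothing is read from them.

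Untemplated bases, here the 3′ bases of a read that do not match the hairpin, were A (10.4% of CPM), U (4.15%) and AU (2.51%) on miR-214-3p. Bases added after cutting and misread bases were not told apart. The excess of A rested on het replicate 1, and over the other 7 libraries A made up 6.69% and U 6.93%. On miR-199a/b-3p U made up 9.08% and A 6.90%, and 11.3% and 5.96% without het replicate 1. miR-199a-5p had a U tail on 3.78%. The tailed share of miR-214-3p was 12.1% ± 7.73 in het and 28.0% ± 8.77 in ko (SD, n = 4 each). The lowest ko library, with 18.2% (2 of 11 reads, 95% Wilson interval 5.14% to 47.7%), lay below the highest het library, with 18.7% (14 of 75 reads, 11.5% to 28.9%). The difference of 15.9 percentage points had an exact two-sided permutation p of 0.0571, and 0.45 after adjustment over the 9 tests of read forms, and in this design the smallest p is 0.0286. At that size at least 6 of the 9 would have to reach the smallest p for any to pass after adjustment, so a single form could not pass however far apart the genotypes lay. For miR-199a/b-3p the tailed share was 18.2% ± 3.44 in het and 13.9% ± 5.88 in ko (exact permutation p = 0.257). The share with the reference seed and the mean length of the 3 members gave exact permutation p from 0.143 to 0.914.

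Each 6mer seed (bases 2 to 7) has a deposited viability score in percent, averaged over 3 mouse cell lines that received an siRNA with that seed, and low scores mark toxic seeds. Over the 3427 seeds in the table the median was 63. The seeds of the miR-199 3p arm and of miR-214-3p, CAGUAG and CAGCAG, scored 75.4 and 59.8, and those of the 5p arms, CCAGUG and GCCUGU, 56.6 and 39.8. The upstream starts turn CAGUAG into ACAGUA, with a score of 86.2, and CAGCAG into ACAGCA, with 75.5, so these forms carry seeds of higher viability than the reference forms. The downstream form of miR-199a/b-3p has the seed AGUAGU, with 55.4, and that of miR-214-5p has CCUGUC, with 31.8.

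The cluster supplied over 50% of the mean CPM of 3 of these 8 seeds. Its reads made up 94.4% of CCAGUG and 87.9% of CAGUAG, whose other named source was miR-222-5p, and without het replicate 1 they made up 91.0% and 85.5%. They made up 62.9% of CAGCAG, which miR-322-5p also carries at 14.6 CPM, but 48.2% without het replicate 1. For ACAGCA the share was 44.5%, which was 89.2% in het replicate 1, 0% in ko replicates 3 and 4, and 22.9% over the 7 libraries without het replicate 1. The cluster supplied 29.8% of AGUAGU, 24.6% of GCCUGU and 22.3% of CCUGUC, and the last was 7.15% without het replicate 1. ACAGUA is the seed of the abundant miR-101a-3p (6194 CPM), and the cluster supplied 0.216% of it. Summed over all R-sRNAs, CAGCAG had 95.8 ± 56.6 CPM in het and 31.7 ± 12.5 CPM in ko, with a log2 difference of -1.48 (SE 0.41, limma adjusted p = 0.392 over 990 seeds). For CCAGUG the log2 difference was -1.75 (SE 0.63, adjusted p = 0.843) and for CAGUAG -0.88 (SE 0.43, adjusted p = 0.849). Among all seeds 0.303% were called, and 0 of these 3 were.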

How the data were processed

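Small RNAs bound to Argonaute proteins were sequenced in 8 libraries, grouped by sample title. The authors' SPOROS pipeline trimmed reads (Trim Galore, per the submitters' notes), removed rare and artificial sequences and matched the rest to mouse small RNAs. The build of that reference is not given in the sources used here, but a second annotation column tags transcripts with mouse_mm9. The GRCm38 positions come from hairpin names and sequences and were not converted. The deposited values are CPM, scaled by the authors to 1000000 reads of a library, and the deposited viability score of a seed comes from their earlier screen. CPM are relative to the rest of a library, so a rise of one abundant miRNA lowers the values of others. Every CPM value was a whole number of reads (100% within 0.001 CPM), which gave the depth, 509839 to 19878054 reads.

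CPM were summed by miRNA name. Features (miRNAs, reads or seeds) whose mean reached 10 CPM entered limma 3.58.1 (trend, robust, R 4.3.3) on log2(CPM + 1), genotype as the only term, with Benjamini-Hochberg adjustment over all tested features. edgeR 4.0.16 (quasi-likelihood) and DESeq2 1.42.0 on recovered reads were alternatives, as were other pseudocounts, filters, centring, a replicate block and leaving out libraries. Shares of read forms and seeds without het replicate 1 were added after seeing the data. Read forms were compared by exact two-sided permutation tests over 70 splits. Python 3.11.15, scipy 1.17.1 and matplotlib 3.10.9 were used, and scripts were tested on simulated data. RefSeq and GENCODE M21 hairpins (GRCm38) gave sequences and positions. Rules named all members, the 3 most abundant reads of each, the 5 nearest miRNAs by r, the cell type lists and miRNAs sharing a member seed. Members and lists were chosen with earlier results of these data known.

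For same-numbered libraries the r over 463 miRNAs was mixed (0.04, 0.29, -0.18 and 0.25 for numbers 1 to 4), which does not settle whether they pair. The labels do not link het and ko mice by number, so the numbers were not treated as pairs.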

Additional observations from a re-analysis of the deposited data

Results flagged for a closer look

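In 28 groups of 4 libraries, the highest or lowest library was compared with the nearest of its genotype, and its gap over the range of the group exceeded Dixon's 95% critical value for 4 values in 4 of them, where chance gives about 1.4 (1 in 20 groups). As the names were chosen with the levels in view, the values of levels are a description. Both leading members stood apart in the same library. miR-214-3p was at 226 CPM in het replicate 1 and at 51.6 CPM in the next het library. miR-199a/b-3p was at 346 CPM in het replicate 1 and at 111 CPM in the next. This library is the shallowest, with 509839 reads, and its 95% Wilson interval for miR-214-3p, 188 to 271 CPM, lies above all others. The further 2 rest on few reads of miR-199a-5p. The share with the reference seed was 85.7% in het replicate 3 (12 of 14 reads, 95% Wilson interval 60.1% to 96.0%), against 97.7% in the next library. The share with an untemplated 3′ end was 40% in ko replicate 3 (6 of 15 reads, 19.8% to 64.3%), against 6.02% in the next.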

How the results depend on the processing

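All alternatives kept the log2 differences of miR-214-3p, miR-199a/b-3p and miR-199a-5p below 0 (61 of 61). With a replicate block, miR-214-3p passed (-1.99, limma adjusted p = 0.0184), and with DESeq2 it passed at -2.18 (adjusted p = 0.0117). No other member was called under the block, which raised the called miRNAs from 6 to 10 (2.16% of 463) and reads from 16 to 26. Whether the replicate numbers pair the mice is not settled. Leaving out 1 library each gave -2.31 to -1.39 for miR-214-3p, -1.32 to -0.56 for miR-199a/b-3p and -2.49 to -0.97 for miR-199a-5p, which was called only without het replicate 3. The same fits called 4 to 9 miRNAs, 9 to 20 reads and 0 to 7 seeds, with 0 seeds without het replicate 2. Called reads numbered 35 with a mean of at least 1 CPM, 5 with at least 100 CPM, 45 with no filter, 9 without the 2 deepest libraries, 6 in libraries of 1000000 to 3000000 reads (added after seeing the data) and 27 with DESeq2. Called seeds numbered 3, and 1 with a pseudocount of 0.1, 15 in those of 1000000 to 3000000 reads, 1 with edgeR and 5 with DESeq2. The mean length of miR-214-3p reads differed by -0.03 nt, and by 0.17 nt in reads of 20 to 24 nt only. It reversed also without ko replicate 4, to 0.22 nt (range from -0.17). The share of the reference seed reversed without ko replicate 3 to 1.93 points for miR-199a/b-3p (range from -4.49) and to 0.034 points for miR-199a-5p (range from -6.89). The cause of these changes was not tested. Summing both miR-199 3p names gives the same values, since the table already joins them, and miR-199a-5p and miR-214-3p could not be fitted above 100 CPM. The shallow libraries limit the low arms most, since 3 reads are 5.79 CPM in het replicate 1. Pooling reads lowered miR-214-3p from 52.9 to 25.4 CPM and miR-199a-5p from 39.9 to 19.5 CPM.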
